A study of Homo sapiens with 12 samples.

Results

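The comparison described here sets an acetyltransferase against its inactive form at the same genomic address. It covers 6 of the 12 libraries of the study, chosen by the label for the transfected gene: 3 from HEK293T cells that received dCas9-p300 core and 3 from cells that received dCas9-p300 D1399Y. Both plasmids encode dCas9, a Cas9 that binds DNA at a guide RNA without cutting it, joined to the catalytic core of the human histone acetyltransferase p300. In the D1399Y form a single amino acid change removes the acetyltransferase activity. All 6 libraries, like the other 6 of the study, also received guide RNAs for 4 sites at IL1RN, so that the groups differ by label only in that amino acid. HEK293T is an established line, derived from human embryonic kidney and transformed with SV40 large T antigen. Plasmids were introduced transiently, with more than 80% of cells usually transfected, and each library therefore mixes transfected and untransfected cells. The remaining groups of 3, with dCas9 alone and with dCas9-VP64, a viral activation domain, are used only to place the levels of single genes.

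p300, encoded by EP300, transfers acetyl groups to lysines of histones and of other proteins. Acetylated histone H3 lysine 27 is a known feature of active promoters and enhancers, and readers with bromodomains bind acetylated lysine. A p300 core tethered by dCas9 can raise transcription of a gene at whose promoter or enhancer it is placed. An overexpressed core could also act elsewhere in the genome, which is why the transcriptome beyond the target is of interest.

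Polyadenylated RNA was sequenced, and the total count lay between 3700113 and 5154627 in the 6 libraries. The deepest was core replicate 2, and the other 5 reached at most 3825418. Counts were summed per gene, and 14156 genes passed the filter on low counts. Levels are given in CPM, which are counts relative to the library size scaled with TMM factors, over these 6 libraries unless stated. D1399Y replicate 2 stood apart: over genes, the chi-square per degree of freedom against each of the other 5 libraries was 5.29 to 10.3, while every other pair of libraries gave 2.19 to 4.44. Calls that end without it are named, and list medians are given with their range on leaving out 1 library at a time. Replicate 3 of both groups carries the description prefix CV42 and the other 4 libraries carry CV41.

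The transcript of the p300 core was at a high level in both groups. EP300, whose counts can include reads from either plasmid, had 1468, 1757 and 1705 counts in the core libraries and 1658, 1335 and 1714 in the D1399Y libraries. The mean level was 389 ± 54.5 CPM (SD, n = 3) with the core and 426 ± 36.8 CPM with D1399Y, and the groups overlapped. The fold change of the core over D1399Y was 0.912 (95% interval 0.761 to 1.09), at log2 -0.13 ± 0.12 (SE). On the scale of all 12 libraries the level was 107 ± 49.2 CPM with dCas9 and 131 ± 8.55 CPM with dCas9-VP64, so every p300 library exceeded all 6 libraries without a p300 plasmid. Plasmid and chromosomal EP300 reads cannot be told apart in these counts, and the counts do not show the D1399Y change. CREBBP, the paralog of EP300, stood at log2 0.06 ± 0.14, with 525, 945 and 775 counts against 619, 521 and 694.

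Very few genes were called as different between active and inactive core, and all of them were higher with the active form. Genes that missed the test may still differ, as each group held only 3 libraries. Of the 14156 genes tested, 4 passed an adjusted p of 0.05 (edgeR quasi-likelihood test, Benjamini-Hochberg adjustment), which is 0.0283% of the genes tested. They were IL1RN, the gene the guides target, DHRS2, a short-chain dehydrogenase/reductase, KDR, a receptor for vascular endothelial growth factor (VEGF), and CRISPLD2, a secreted glycoprotein. With an adjusted p under 0.05, 0 genes were lower with the core, while 186 were lower at an unadjusted p under 0.05. DESeq2 and limma-voom also called 0 genes lower. At least a 2-fold difference was seen in 41 genes upward and 4 downward, out of which all but the 4 named missed the test.

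**Figure D1:**
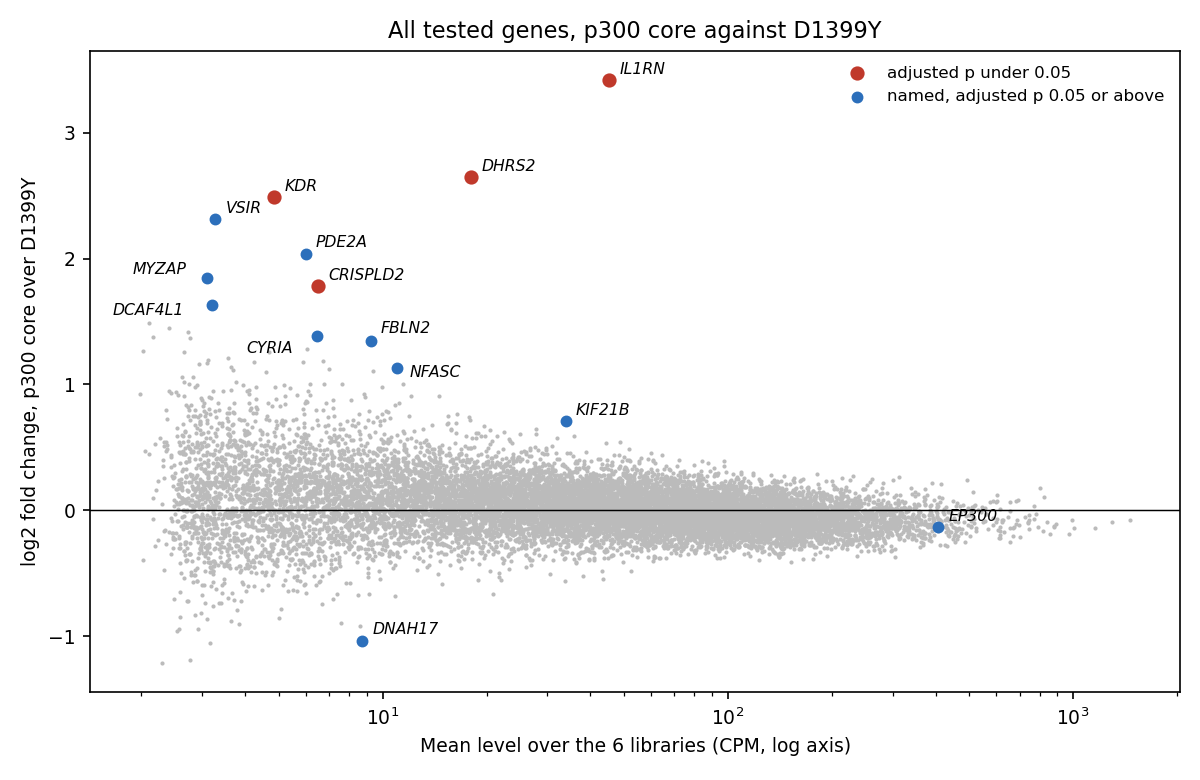
Each point is 1 of 14156 tested genes, placed by its mean level over the 6 libraries (CPM, log axis) and its log2 fold change of p300 core over D1399Y. IL1RN, DHRS2, KDR and CRISPLD2 (red) passed the test. The named genes in blue did not, and EP300 lies near 0 at log2 -0.13.

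The upstream sequences of the 4 genes are shown because these are the promoters of the only genes called, 1 of them targeted and 3 not. Each is the run of 250 bases before a transcription start in RefSeq (GRCh38.p14), 5′ to 3′ on the strand of the gene. All 4 genes matched the promoter table, which lists 3 starts for IL1RN and 1 for each of the others. For IL1RN the most upstream and the most downstream start are shown, since the window of the middle start overlaps the latter. Capitals mark matches, on either strand, to any of 6 short motifs. They were the GC box of SP1-type factors (GGGCGG), the TATA box at which the general machinery assembles (TATAAA), and the box of nuclear factor Y (CCAAT). The others were the element of the AP-1 factors (TGANTCA), the E-box of basic helix-loop-helix factors (CACGTG) and the cyclic AMP response element (TGACGTCA).
IL1RN, upstream start, chr2:113117721-113117970, plus strand: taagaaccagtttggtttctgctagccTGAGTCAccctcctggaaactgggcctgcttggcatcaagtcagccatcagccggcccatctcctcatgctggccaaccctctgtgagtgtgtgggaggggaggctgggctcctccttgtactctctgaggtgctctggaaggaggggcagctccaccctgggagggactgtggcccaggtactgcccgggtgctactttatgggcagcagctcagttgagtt
IL1RN, downstream start, chr2:113127348-113127597, plus strand: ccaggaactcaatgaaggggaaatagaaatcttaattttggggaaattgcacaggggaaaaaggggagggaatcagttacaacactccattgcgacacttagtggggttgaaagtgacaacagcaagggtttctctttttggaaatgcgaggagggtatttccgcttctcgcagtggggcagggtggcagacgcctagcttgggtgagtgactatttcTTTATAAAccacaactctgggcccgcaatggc
DHRS2, chr14:23629865-23630114, plus strand: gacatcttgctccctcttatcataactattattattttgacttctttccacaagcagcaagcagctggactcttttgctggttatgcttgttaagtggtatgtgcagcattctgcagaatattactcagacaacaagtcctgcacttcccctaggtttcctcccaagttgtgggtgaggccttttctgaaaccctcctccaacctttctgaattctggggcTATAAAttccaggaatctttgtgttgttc
KDR, chr4:55125596-55125845, minus strand: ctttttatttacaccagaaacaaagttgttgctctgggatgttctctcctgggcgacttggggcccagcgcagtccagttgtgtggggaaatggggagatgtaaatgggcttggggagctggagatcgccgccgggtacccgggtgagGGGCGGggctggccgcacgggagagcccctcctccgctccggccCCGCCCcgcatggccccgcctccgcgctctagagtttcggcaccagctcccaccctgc
CRISPLD2, chr16:84819735-84819984, plus strand: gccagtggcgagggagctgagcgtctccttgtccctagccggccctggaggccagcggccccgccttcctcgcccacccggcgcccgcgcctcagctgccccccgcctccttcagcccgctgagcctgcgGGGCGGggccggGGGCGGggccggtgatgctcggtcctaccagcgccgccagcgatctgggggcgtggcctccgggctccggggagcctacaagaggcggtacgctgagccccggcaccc

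The 4 upstream sequences were unlike each other. Those of IL1RN and DHRS2 held few CpG dinucleotides, with 2 before the upstream IL1RN start, 6 before the downstream start and 0 before DHRS2. Those of KDR and CRISPLD2 held 17 and 27, beside a median of 20 over 16139 promoters of tested genes. G and C made up 59.6% and 48.4% of the IL1RN windows, 43.2% for DHRS2, 65.2% for KDR and 77.6% for CRISPLD2, where the median of tested genes was 64.4%.

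KDR and CRISPLD2 each held 2 GC boxes, a motif present in 62.9% of the promoters of tested genes. The upstream IL1RN start had 1 AP-1 match, found in 4.37% of those promoters. The downstream start had the TATA box in both orientations, overlapping in TTTATAAA, and DHRS2 had it once, shortly before the start; 5.92% of the promoters of tested genes hold it. No motif of the 6 was present in all of these windows. A match describes letters only, and the positions of the 4 guide sites were not used here.

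The targeted gene, IL1RN, had the largest fold change of all genes tested. It encodes the interleukin 1 receptor antagonist, which occupies the interleukin 1 receptor without activating it. Counts were 278, 455 and 339 in the core libraries against 24, 26 and 35 in the D1399Y libraries, or 72.9, 87.0 and 88.4 CPM against 6.42, 7.47 and 9.20 CPM. Every core library thus lay far above every D1399Y library. The means were 82.8 ± 8.57 CPM (SD, n = 3) and 7.70 ± 1.40 CPM, a 10.7-fold difference (95% interval 8.26 to 13.9; log2 3.42 ± 0.17; adjusted p = 2.08e-07, edgeR).

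The deposited tables list 4 IL1RN transcripts, and when single transcripts were tested all 4 were higher with the core. NM_173842 stood at log2 3.55 ± 0.27, NM_173843 at 3.49 ± 0.27, NM_173841 at 3.30 ± 0.27 and NM_000577 at 3.27 ± 0.26, with overlapping ranges of 1 SE. The assignment of reads shared by isoforms is unknown here, and the 4 values are not separate measurements of isoform use.

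DHRS2 was the called gene with the widest spread within the core group. It encodes a short-chain dehydrogenase/reductase and is known to rise in cells given histone deacetylase inhibitors. Its counts were 185, 104 and 96 with the core against 20, 15 and 19 with D1399Y. The levels were 48.5, 19.9 and 25 CPM against 5.35, 4.31 and 4.99 CPM, with core replicate 1 above the others and no overlap. The means of 31.1 ± 15.3 CPM and 4.88 ± 0.530 CPM (SD, n = 3) gave a 6.26-fold difference (95% interval 3.79 to 10.3; log2 2.65 ± 0.34; adjusted p = 0.0122, edgeR).

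Without core replicate 1 the DHRS2 difference was log2 2.18 (adjusted p = 0.00358, edgeR). It missed the threshold without D1399Y replicate 2 (adjusted p = 0.0502) and without D1399Y replicate 3 (adjusted p = 0.250), at log2 2.56 and 2.65. Both transcripts in the tables passed the transcript test, NM_182908 at log2 2.70 ± 0.37 with 86, 50 and 46 counts against 8, 7 and 9, and NM_005794 at log2 2.55 ± 0.37 with 99, 54 and 50 against 12, 8 and 10.

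KDR was barely detected with D1399Y and low but steady with the core. KDR, also called VEGFR2, is the main signalling receptor for VEGF-A in endothelial cells. Its counts were 27, 46 and 34 with the core against 8, 2 and 6 with D1399Y. In CPM these were 7.08, 8.79 and 8.87 against 2.14, 0.575 and 1.58, with no overlap between the groups. The difference was 5.61-fold (95% interval 3.29 to 9.59; log2 2.49 ± 0.36; adjusted p = 0.0340, edgeR). It rests on at most 8 counts per D1399Y library, and it missed the threshold without core replicate 1, 2 or 3 and without D1399Y replicate 2 or 3, at log2 2.13 to 2.58.

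CRISPLD2 had the smallest fold change among the called genes and the tightest core group. It encodes a secreted protein of the cysteine-rich secretory protein family that carries LCCL domains. There were 39, 50 and 40 counts with the core against 10, 8 and 14 with D1399Y, which is 10.2, 9.56 and 10.4 CPM against 2.68, 2.30 and 3.68 CPM. The groups did not overlap. The fold change was 3.44 (95% interval 2.29 to 5.16; log2 1.78 ± 0.27; adjusted p = 0.0471, edgeR). Leaving out any 1 of the 6 libraries ended this call, with log2 values of 1.64 to 1.99, and so did RLE factors (adjusted p = 0.0510). Antisense gene models overlap exons of CRISPLD2, and as the strand setting of the counting is unknown here, reads of the 2 strands cannot be told apart.

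The 3 untargeted genes were called again with upper-quartile factors, DESeq2, limma-voom, the robust fit and no filter, but not in every fit. Within the 4 CV41 libraries DHRS2 stood at log2 2.78 ± 0.43, KDR at 2.50 ± 0.48 and CRISPLD2 at 1.96 ± 0.35, with adjusted p-values of 0.284, 0.622 and 0.606 (edgeR), while IL1RN stood at 3.52 (adjusted p = 5.09e-05). The CV42 prefix holds 1 library of each group and gives no test. With all 12 libraries in 1 fit the adjusted p-values of DHRS2, KDR and CRISPLD2 were 0.357, 0.171 and 0.398 (edgeR). With the prefix as a covariate DHRS2 passed (adjusted p = 0.0401), and KDR and CRISPLD2 did not (adjusted p = 0.0763 for both, edgeR). A filter of 1 CPM in 3 libraries was looser than the main one, with 15867 genes tested against 14156. This looser filter ended the call of CRISPLD2 alone (adjusted p = 0.0540, edgeR).

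Levels in the groups without p300 place these differences. On the scale of all 12 libraries, IL1RN stood at 83.6 ± 8.64 CPM with the core, 24.7 ± 6.07 CPM with dCas9-VP64, 7.78 ± 1.42 CPM with D1399Y and 6.74 ± 2.51 CPM with dCas9 (SD, n = 3 each). The D1399Y and dCas9 libraries overlapped. For KDR the other 9 libraries held 0.496 to 2.17 CPM, all below the lowest core library at 7.15 CPM. For CRISPLD2 the other 9 reached at most 5.02 CPM, in dCas9 replicate 2, below the lowest core library at 9.66 CPM.

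DHRS2 was different in this respect. Its dCas9 libraries stood at 9.07, 6.94 and 23.7 CPM and its dCas9-VP64 libraries at 12.7, 5.60 and 8.65 CPM, while D1399Y reached at most 5.43 CPM. dCas9 replicate 3, which is the shallowest library of the study at 2442960 counts, lay above core replicate 2 at 20.1 CPM. The other 8 libraries without an active core lay below all 3 core libraries. Each D1399Y library was also below every dCas9 and dCas9-VP64 library for this gene. Apart from its depth, dCas9 replicate 3 differed from dCas9 replicates 1 and 2 for other genes. It was lower for EP300 (51.9 CPM against 124 and 146) and NRP1 (55.2 CPM against 130 and 143). RPL7 was higher in CPM (255 against 196 and 165), but not in counts. These were 692, 692 and 688 in dCas9 replicates 1 to 3, so the CPM of RPL7 followed the depth.

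**Figure D2:**
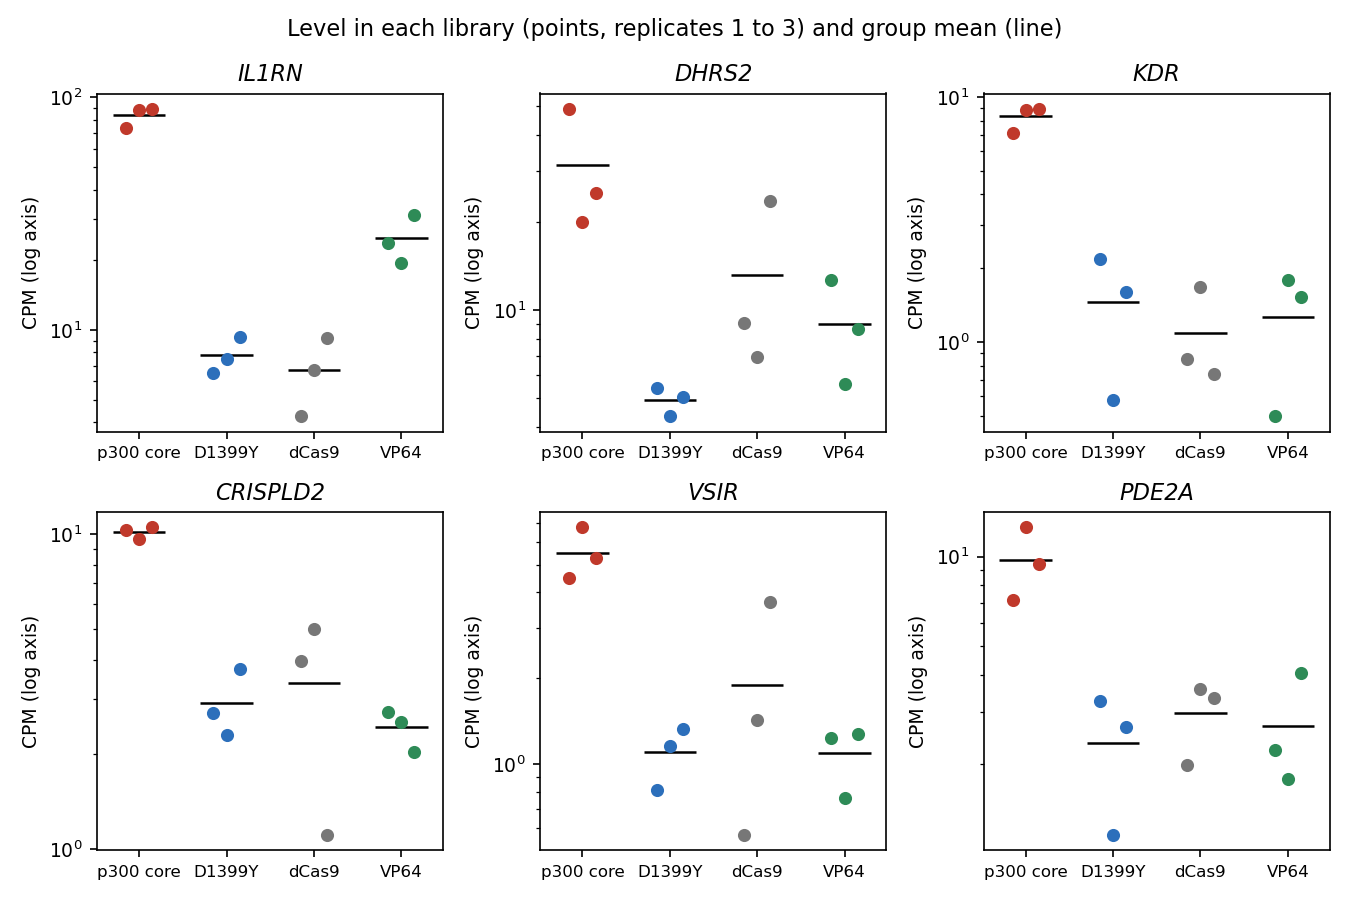
Each panel shows 1 gene, with the level in CPM (log axis, all 12 libraries scaled together) of replicates 1 to 3 from left to right in each group and the group mean as a line. The core libraries lie above all 9 others for IL1RN, KDR, CRISPLD2, VSIR and PDE2A; for DHRS2, dCas9 replicate 3 at 23.7 CPM lies among them.

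The comparison of dCas9-VP64 with dCas9 shares no library with that of the core with D1399Y. Its spread and scaling were estimated over all 12 libraries, however, so the comparisons are not fully independent. In a fit of all 12 libraries, IL1RN stood at log2 1.90 ± 0.26 there and missed the threshold over all genes (adjusted p = 0.0749, edgeR). The dCas9 group of this fit includes replicate 3, the shallow library that differed from the rest of its group. DHRS2 was at log2 -0.50 ± 0.47, KDR at 0.14 ± 0.57 and CRISPLD2 at -0.54 ± 0.40, with 95% intervals of -1.51 to 0.50, -1.08 to 1.36 and -1.40 to 0.33. The 3 untargeted genes therefore had intervals in this comparison that end below the log2 values they had with the active core, but the difference between the comparisons was not tested.

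All 13 genes with an unadjusted p under 0.001 were higher with the core, and 9 of them did not pass after adjustment; if no gene differed, 14.2 genes in either direction would be expected under that value. At an unadjusted p under 0.05 there were 569 genes (4.02%), beside an expected 708 in that case, with 383 higher and 186 lower. The higher share, 67.3%, was 78.7% with upper-quartile factors, 54.8% with DESeq2 and 46.9% to 82.1% without 1 library. VSIR, an immune checkpoint protein also called VISTA, had 17, 35 and 20 counts with the core against 3, 4 and 5 with D1399Y, at log2 2.31 ± 0.37 (adjusted p = 0.0599, edgeR). Its single transcript, NM_022153, passed in the test of transcripts, where the adjustment runs over 24766 transcripts (adjusted p = 0.0248, edgeR). In that test 9 transcripts of 5 genes were called, 0.0363% of those tested, and all 9 were higher with the core: those of IL1RN, DHRS2, KDR, CRISPLD2 and VSIR.

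PDE2A, a phosphodiesterase that is stimulated by cyclic GMP, had 27, 65 and 36 counts against 12, 4 and 10, at log2 2.04 ± 0.35 (adjusted p = 0.108, edgeR). FBLN2, the extracellular matrix protein fibulin 2, had 44, 59 and 65 counts against 17, 21 and 19, at log2 1.34 ± 0.26. NFASC, the adhesion protein neurofascin, had 57, 71 and 65 against 32, 22 and 22, at log2 1.13 ± 0.23. For VSIR and these 3 genes every core library exceeded every D1399Y library, as in 5.56% of all genes. They were chosen by small p in the same 6 libraries, so this adds no support. On the scale of 12 libraries, every core library exceeded all 9 libraries without an active core for them. The share of all genes for which this holds was not counted.

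DCAF4L1 (log2 1.63 ± 0.34), MYZAP (1.84 ± 0.40), CYRIA (1.38 ± 0.31), a regulator of Rac signalling, and the kinesin KIF21B (0.71 ± 0.16) completed the 8 genes that came next upward, with adjusted p-values of 0.455 to 0.695 (edgeR). MYZAP shares exons with GCOM1, so its reads cannot be assigned to it alone. Antisense models overlap exons of PDE2A, CYRIA and EP300 too. KIF21B was the most abundant of them, with 146, 260 and 145 counts against 95, 93 and 96.

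Downward, the gene of smallest p was DNAH17, an axonemal dynein heavy chain, with 19, 32 and 23 counts against 63, 36 and 31 (log2 -1.04 ± 0.29; adjusted p = 0.921, edgeR). In CPM the groups did not overlap, at 4.98, 6.12 and 6 CPM against 16.9, 10.3 and 8.14 CPM, and D1399Y replicate 1 was the highest. The core was lower without overlap in 4.1% of all genes. The next 7 were ANKRD20A12P (-0.90 ± 0.26), the vesicular monoamine transporter gene SLC18A2 (-0.67 ± 0.20), TEX26 (-1.22 ± 0.38), the inositol kinase gene IPMK (-0.48 ± 0.16), GNPNAT1 of amino sugar synthesis (-0.34 ± 0.11), LBR, the lamin B receptor (-0.37 ± 0.13), and the transcription factor BCL11B (-0.59 ± 0.20). Each had the same adjusted p as DNAH17, and antisense or opposite-strand models overlap exons of DNAH17, SLC18A2, TEX26 and GNPNAT1.

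**Figure D3:**
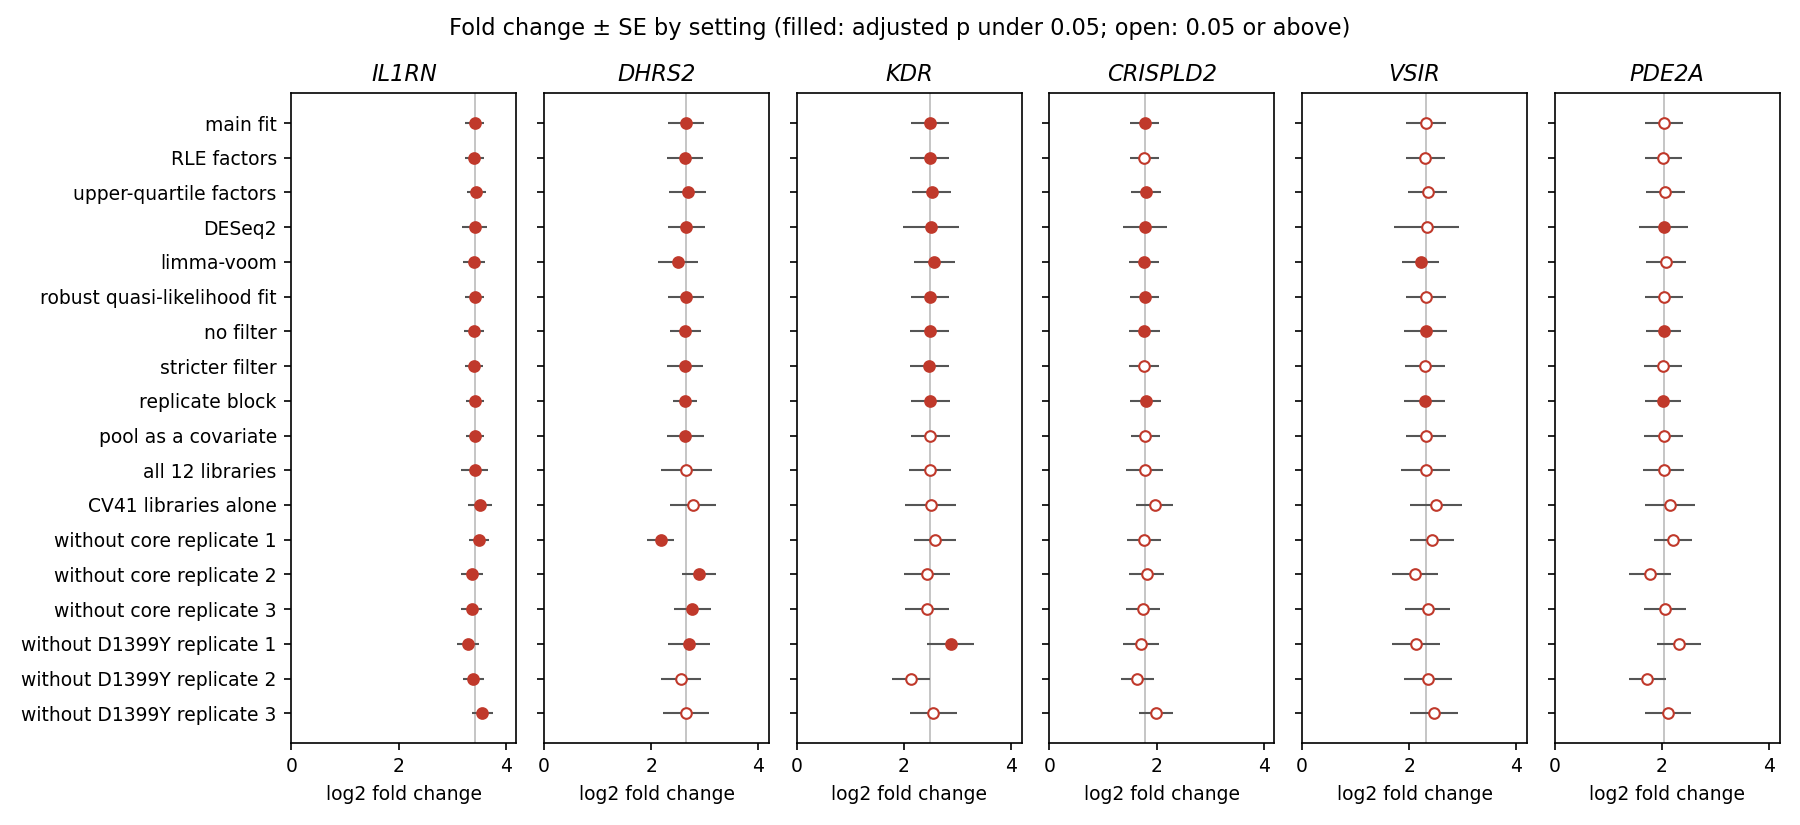
Log2 fold changes of p300 core over D1399Y (points, with SE as bars) for 6 genes under the main fit and 17 alternatives, with filled points where the adjusted p was under 0.05. IL1RN is filled in every row and stays between 3.29 and 3.56. DHRS2 is filled under 13 of the 17 alternatives, KDR under 9, CRISPLD2 under 6, and VSIR and PDE2A under 3 each.

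The nearest tested genes around the called ones had small differences. Taking the 3 nearest tested protein-coding genes on each side of the 4 genes, a choice made after the values were seen, 0 of 24 passed, where 0.0283% of all genes did, and their log2 values lay between -0.43 and 0.42 with a median of 0.13 (smallest unadjusted p = 0.113, edgeR). After IL1RN, PSD4, the next coding gene, stood at 0.42 ± 0.31 with 25, 40 and 41 counts against 14, 21 and 33. ZNG1B, 3 coding genes away, stood at 0.26 ± 0.16, and RABL2A was 7 away. Before IL1RN the nearest tested genes, CKAP2L, SLC20A1 and CHCHD5, were 9, 11 and 12 coding genes away. The median of these 6 genes was 0.24. The interleukin 1 family genes that share the cluster with IL1RN were nearly silent in all 6 libraries. IL1F10, IL36RN, IL36A, IL36B, IL36G and IL37 had 0 counts in each, IL1B had 2 counts in core replicate 2, and IL1A had 1 count in D1399Y replicate 2.

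DHRS4 and DHRS4L2, dehydrogenase genes that follow DHRS2 on chromosome 14, stood at 0.20 ± 0.18 and 0.15 ± 0.15. KIT and PDGFRA, receptor tyrosine kinase genes beside KDR on chromosome 4, stood at 0.05 ± 0.12 and -0.43 ± 0.35. USP10 and ZDHHC7, on either side of CRISPLD2, stood at -0.02 ± 0.10 and 0.03 ± 0.11.

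No other tested member of the families of KDR and DHRS2 passed, where 0.0283% of all genes did. Of 9 tested genes of VEGF ligands, receptors and coreceptors, KDR alone passed, and the median log2 was 0.00 (-0.04 to 0.08 without 1 library), beside 0.01 over all genes tested. Among the receptors, FLT1 stood at -0.07 ± 0.11 and FLT4 at 0.19 ± 0.13. The coreceptors NRP1 and NRP2 stood at -0.28 ± 0.13 and 0.16 ± 0.13, and the ligand gene VEGFA at -0.06 ± 0.17. The endothelial marker genes CDH5 and ROBO4 had 0 counts in all 6 libraries. Of that list of 12, only EGFL7 (0.30 ± 0.19) and EMCN (-0.03 ± 0.35) had enough counts to be tested. The summed level of the list was 34.4 to 37.3 CPM in the core libraries and 24.3 to 32.7 CPM in the D1399Y libraries. Below the filter, ESAM had 9, 13 and 11 counts with the core against 3, 3 and 4 with D1399Y, PECAM1 had 7, 5 and 9 against 8, 6 and 5, and TEK had 3, 4 and 4 against 2, 4 and 7.

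Of 13 tested short-chain dehydrogenases, DHRS2 alone passed and the median was 0.08 (0.03 without D1399Y replicate 2, 0.16 without D1399Y replicate 3), with DHRS7 at -0.17 ± 0.11 and DHRS1 at 0.29 ± 0.23. In a list of 14 genes known to rise with deacetylase inhibitors, 10 were tested, 1 passed, 8 lay above 0 and the median was 0.22, which became 0.07 without core replicate 1, 0.08 without D1399Y replicate 2 and 0.34 without core replicate 2. In both lists DHRS2 was the one that passed, where 0.0283% of all genes did. ALPL, tissue-nonspecific alkaline phosphatase, had 81, 79 and 81 counts against 54, 27 and 49 (log2 0.69 ± 0.24) without passing. GSN, gelsolin, stood at 0.29 ± 0.15 and the cell cycle inhibitor gene CDKN1A at 0.24 ± 0.18.

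Of 21 tested cyclic nucleotide phosphodiesterases 0 passed, where 0.0283% of all genes did. Besides PDE2A, 2 had an unadjusted p under 0.05 (edgeR), as 4.02% of all genes did: PDE9A at 0.39 ± 0.12 and PDE3A at 0.60 ± 0.27. The median of these genes was 0.06, with 11 above 0, and ran from -0.03 to 0.08 without 1 library.

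Signalling downstream of the interleukin 1 receptor showed no called gene, where 0.0283% of all genes were called. A count of 0 therefore says nothing particular to this list or to the NF-kB targets. Of 16 tested members 8 lay above 0 and 8 below, with a median of 0.02 (-0.02 to 0.09 without 1 library). The receptor gene IL1R1 stood at 0.31 ± 0.41, its partner IL1RAP at -0.05 ± 0.25 and the adaptor MYD88 at -0.04 ± 0.25, while the kinase-binding proteins TAB1 and TAB3 stood at 0.22 ± 0.14 and -0.19 ± 0.14. Of 12 tested NF-kB targets 0 passed, with a median of 0.24. TRAF1 was at 0.59 ± 0.28 and NFKB2 at 0.26 ± 0.15. The median of the NF-kB list was 0.00 without core replicate 3 and 0.10 without D1399Y replicate 2.

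No gene for the machinery of histone acetylation passed the test, where 0.0283% of all genes did. Such counts therefore say nothing particular to these genes. Of 16 histone acetyltransferase genes, all tested, 0 passed and the median was 0.01 (-0.06 to 0.03 without 1 library), with KAT5 at 0.23 ± 0.14 and KAT2B at -0.25 ± 0.16. Of 16 deacetylase genes 0 passed and the median was 0.08 (0.02 without D1399Y replicate 2, -0.02 without core replicate 1). SIRT2, a sirtuin, had 346, 412 and 292 counts against 233, 210 and 243 (log2 0.40 ± 0.12), and HDAC11 stood at 0.44 ± 0.20. The 21 bromodomain genes had 0 calls and a median of -0.01 (-0.05 to 0.01 without 1 library). Of 22 tested subunits of the BAF chromatin remodeller 0 passed, 14 lay above 0 and the median was 0.10 (0.04 without D1399Y replicate 2, 0.16 without D1399Y replicate 3). DPF3, a subunit whose PHD fingers bind acetylated histones, had 31, 36 and 25 counts against 18, 11 and 11 (log2 0.98 ± 0.29).

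In the lists for stress and growth 0 genes passed, where 0.0283% of all genes did, so these counts say nothing particular to the lists. Their medians were small and moved with single libraries, as the lowest and highest median without 1 library show. The median was 0.12 over 14 tested interferon-stimulated genes (0.05 without D1399Y replicate 2 or 3, 0.18 without core replicate 1). It was 0.05 over 19 immediate early genes, and its sign changed (-0.10 without core replicate 3, -0.01 without D1399Y replicate 2, 0.13 without core replicate 2). It was -0.04 over 20 p53 targets (-0.12 without core replicate 1, -0.09 without D1399Y replicate 2, -0.03 without core replicate 3), -0.05 over 12 heat shock genes (-0.14 without core replicate 1, 0.01 without D1399Y replicate 1) and -0.07 over 16 genes of the unfolded protein response (-0.11 without D1399Y replicate 1, -0.02 without D1399Y replicate 2 or 3). Cholesterol synthesis, with 17 genes, had a median of 0.06 (0.01 without core replicate 3, 0.11 without core replicate 2). The 16 hypoxia targets had one of 0.02, and its sign changed (-0.06 without core replicate 1, -0.03 without D1399Y replicate 2, 0.11 without core replicate 2). The 22 genes of DNA replication and mitosis were at -0.02 (-0.06 without D1399Y replicate 2, 0.00 without core replicate 2) and 11 histone genes at -0.03 (-0.10 without core replicate 3, 0.00 without core replicate 2). Members of smallest p included IRF7 (0.79 ± 0.34), the p53-induced ribonucleotide reductase subunit RRM2B (-0.37 ± 0.13), SDF2L1 of the endoplasmic reticulum (0.64 ± 0.25), LSS, lanosterol synthase (0.27 ± 0.11), and the histone gene H2BC5 (0.87 ± 0.30).

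Genes that other activators of this kind are commonly aimed at stayed low. MYOD1 had 7, 13 and 7 counts against 12, 2 and 6, HBE1 had 1, 3 and 1 against 0, 0 and 0, and POU5F1 stood at 0.13 ± 0.26. HBG1, HBB and HBD had 0 counts in all 6 libraries.

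**Figure D4:**
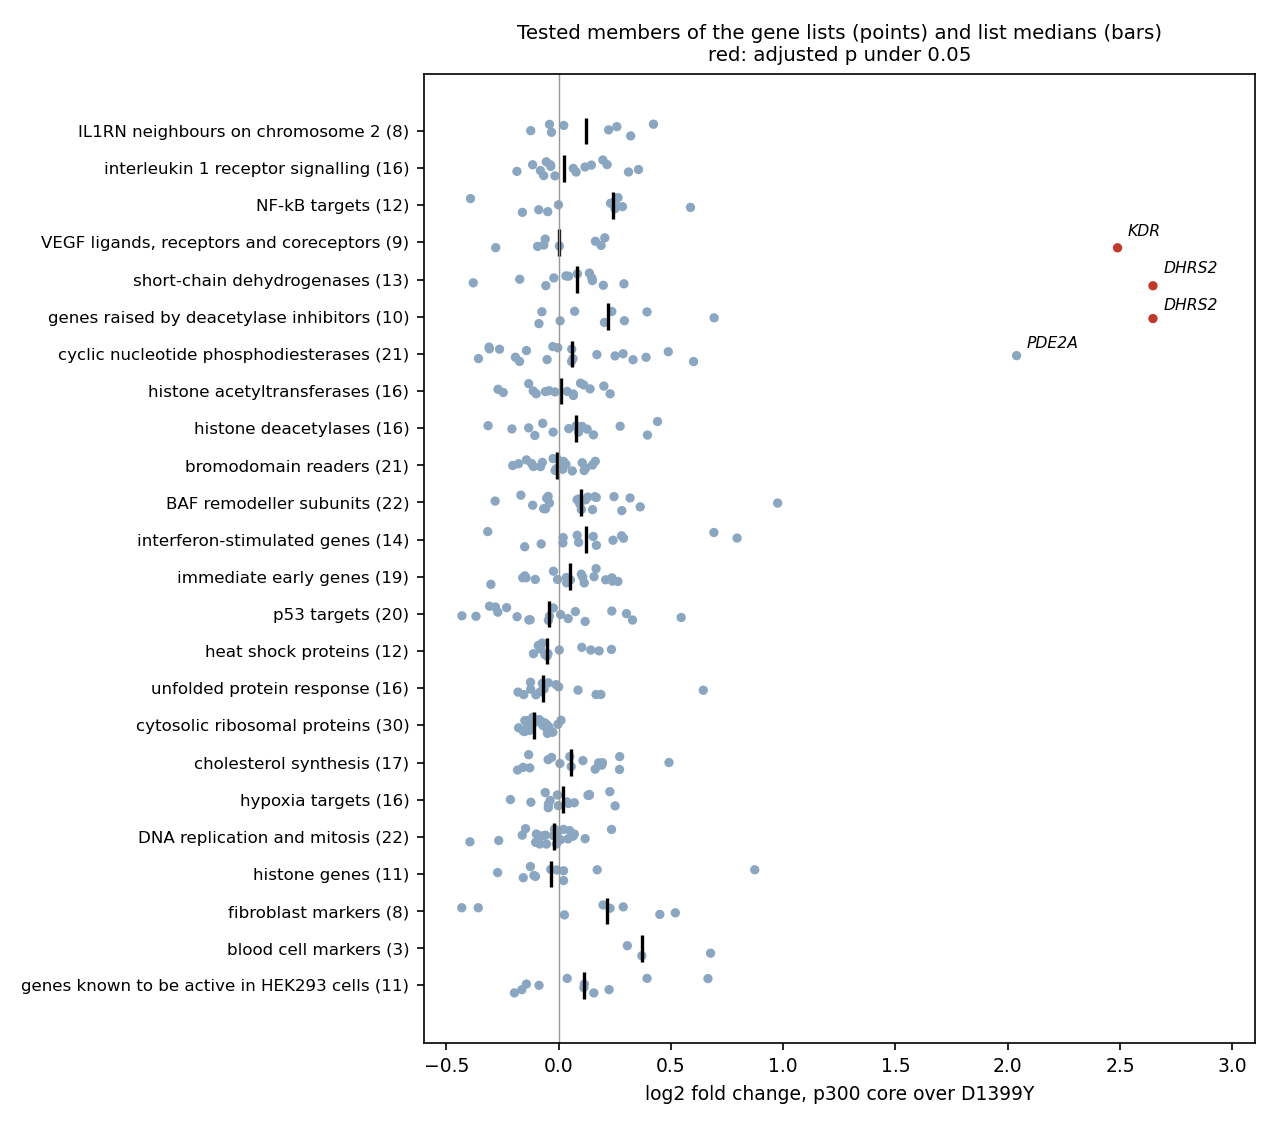
Points are the log2 fold changes of p300 core over D1399Y for the tested members of each gene list with at least 3 tested members (number in brackets), and bars are list medians. KDR and DHRS2 are the only members that passed the test, DHRS2 in both lists that hold it, and list medians lie between -0.11 and 0.37.

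Among markers of other cell types 0 tested genes passed, where 0.0283% of all genes did. Of 14 fibroblast genes 8 were tested and 0 passed, with 6 above 0, 2 below, a median of 0.21 (0.10 without D1399Y replicate 1, 0.38 without D1399Y replicate 3) and summed levels of 592 to 652 CPM with the core and 564 to 594 CPM with D1399Y. COL1A1 stood at 0.45 ± 0.19 and PDGFRA at -0.43 ± 0.35, and THY1 had 0 counts. Of 12 blood cell genes 3 were tested, all above 0, and CD3E had 0 counts. LYZ stood at 0.68 ± 0.34, with 13, 17 and 15 counts against 7, 10 and 7. It passed the count filter only through the core group, so its sign adds no support. The summed levels of the blood cell genes were 16.2 to 22.5 CPM with the core and 12.1 to 16.0 CPM with D1399Y. Of 12 epithelial and keratinocyte genes 2 were tested, EPCAM at -0.48 ± 0.37 and CDH1 at 0.09 ± 0.22, and KRT5 and KRT14 had 0 counts. Genes known to be active in HEK293 cells, such as the neurofilament and vimentin genes, summed to 807 to 990 CPM with the core and 854 to 955 CPM with D1399Y. Their part in the results was not tested.

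The small differences over all genes followed the level of expression. Groups did not overlap, with the core higher, in 787 genes (5.56%) and, with the core lower, in 581 genes (4.1%). Among genes under 5 CPM the median log2 was 0.11, and the core was higher without overlap in 9.24% and lower in 4.22%. Between 5 and 20 CPM the median was 0.09, with 8.64% higher and 2.31% lower. Above 100 CPM the median was -0.07, with 2% higher and 6.23% lower. Low genes therefore leaned toward the core and abundant genes away from it, each by far less than the called genes.

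The cytosolic ribosomal proteins, which are abundant, had 29 of 30 members below 0 with 0 calls, where 0.0283% of all genes were called. Their median was -0.11, with RPL7 at -0.18 ± 0.12. RPL7 had 703, 729 and 666 counts against 697, 663 and 704. These counts hardly rose in core replicate 2, the deepest library. The RPL7 level was therefore lowest there, at 139 CPM against 174 to 190 CPM in the other 5 libraries. RPL13 counts varied more (1565, 1813 and 1212 against 1471, 1101 and 1390). The part of depth in the values below 0 was not tested. The lean of all genes depended on D1399Y replicate 2. Without that library the medians were 0.05 under 5 CPM and -0.02 above 100 CPM. Without each of the other 5 libraries in turn the median under 5 CPM was 0.06 to 0.13 and that above 100 CPM was -0.07 to -0.11. The ribosomal median was -0.14 without D1399Y replicate 2, -0.21 without core replicate 1 with 30 of 30 members below 0, and -0.02 without core replicate 2 with 20 of 30 below 0.

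**Figure D5:**
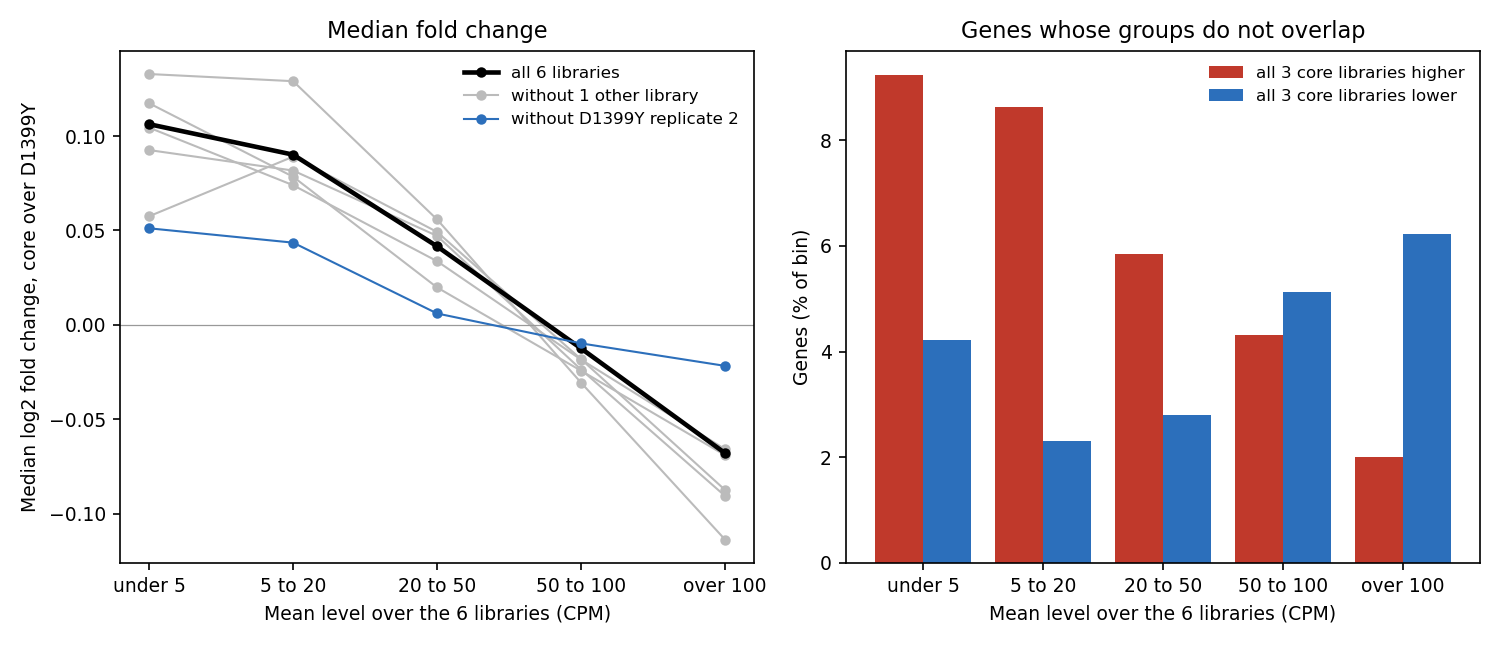
Left, the median log2 fold change of p300 core over D1399Y for genes in 5 bins of mean level (CPM), with all 6 libraries (black), without D1399Y replicate 2 (blue) and without each other library (grey). Right, the share of genes in each bin whose 3 core libraries all lie above (red) or all below (blue) the 3 D1399Y libraries. The black line falls from 0.11 to -0.07 and the blue line from 0.05 to -0.02.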

How the data were processed

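Messenger RNA was sequenced from 12 HEK293T libraries, of which 6 are compared. Per the submitters' processing notes, the authors used hg19 with DESeq2 1.6.2, R 3.1.2, CASAVA, SAMtools and Bowtie2; each tool's role, the strand setting and the rule for reads shared by isoforms were not given in the sources used here. As raw data, the authors deposited counts in whole numbers for 40709 RefSeq transcripts per library. Transcripts were named through RefSeq (39320) and GENCODE 29 (521), and 868 kept their identifiers (1.06% of the counts). Sums per gene gave 24395 features. The naming tables rest on GRCh38, so gene order comes from that assembly.

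The main test was edgeR 4.0.16 in R 4.3.3 (TMM factors, filterByExpr at its minimum count, 10, and minimum total, 15, quasi-likelihood test, two-sided, Benjamini-Hochberg over 14156 genes, threshold 0.05), fitted on the 6 libraries alone and checked on simulated data. Values after ± are SDs for levels and standard errors for log2 fold changes. Alternatives were upper-quartile and RLE factors, limma-voom 3.58.1, DESeq2 1.42.0, a robust fit, 2 other filters, the replicate number as a block, the description prefix as a covariate, all 12 libraries, the CV41 libraries alone and leaving out each library. Figures used Python 3.11.15, pandas 2.3.3 and matplotlib 3.10.9.

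Named genes are IL1RN, EP300, KDR, DHRS2 and CREBBP, all genes past the threshold, the next 8 each way by p, and at most 3 members of each of 27 gene lists by p; other list members are named outside this rule, chosen after their values were seen. Of 452 listed genes the files held 449; NT5DC4, BRD1 and CECR2 were not analysed here. The comparison, lists and markers were chosen with earlier results of these data known. Of replicates the labels say only that transfection was in triplicate; p-values thus measure the spread of these samples, which may be technical.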

Additional observations from a re-analysis of the deposited data

How the results depend on the processing

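IL1RN passed under all 17 alternatives run, at log2 3.29 to 3.56. The count of called genes, 4, was 7 with no filter, 7 with the replicate number as a block (replicate block; added VSIR, PDE2A and FBLN2), 2 with the description prefix as a covariate, 1 with all 12 libraries, 1 with the CV41 libraries alone and 1 to 3 without 1 replicate; it was 1, IL1RN, without D1399Y replicate 2 or 3. Same-numbered deviations correlated at 0.51, 0.22 and -0.03 over 12912 genes, and not every library correlated best with its own number. The deviations were taken from the mean of each group of 3, so this check cannot exclude pairing. By chi-square per degree of freedom, the closest libraries of all were core and D1399Y replicate 3 (2.19), then core and D1399Y replicate 1 (2.29). Core and D1399Y replicate 2 were far apart (6.73). The labels state no pairing, and the main fit used none. The block ended no call. The causes were not tested. Genes with an unadjusted p under 0.05 numbered 569, and 1041 with the replicate block.

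Of other single values of the core against D1399Y, 1556 kept direction and side of the threshold over the alternatives, 23 lost and 8 gained significance and 11 changed sign, all for genes that never passed. EMCN was 0.00133 with upper-quartile factors. Without 1 replicate, log2 values ran over -0.34 to 0.17 for EMCN, -0.0497 to 0.436 for HSPA1A, -0.13 to 0.33 for CDH1, -0.0636 to 0.202 for CREBBP and -0.235 to 0.00649 for PDK1. In alternatives chosen after seeing the data, 5 transcripts were called in the CV41 libraries alone and 4 to 9 without 1 replicate, and for dCas9-VP64 against dCas9 KDR ran over -0.18 to 0.64 and DHRS2 over -0.84 to 0.18 without 1 replicate. In the main fit a gene was tested if it reached about 10 counts in at least 3 libraries, so 1 group alone could carry it through the filter. KDR, VSIR, DCAF4L1, MYZAP and IRF7 entered through the core group, with no D1399Y library at that level. TEX26 entered through the D1399Y group. For CRISPLD2, PDE2A, CYRIA and LYZ fewer than 3 D1399Y libraries reached the level. The core group thus carried these genes through as well. Leaving out single libraries for the list medians and for the level bins was also chosen after seeing the data.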

Other observations

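DPF3, a BAF subunit gene, was at log2 0.98 ± 0.29 with the active core over D1399Y and at log2 1.06 ± 0.39 with dCas9-VP64 over dCas9. The groups compared share no library, but the second fit took its spread and scaling from all 12 libraries. DPF3 passed in neither (adjusted p = 0.921 and 0.929, edgeR). Over all 12 libraries its levels were 8.21, 6.95 and 6.58 CPM with the core, 4.89, 3.18 and 2.93 CPM with D1399Y, 5.21, 5.09 and 2.29 CPM with dCas9-VP64 and 1.42, 2.63 and 1.85 CPM with dCas9, so each D1399Y library also exceeded each dCas9 library. This gene was singled out after its values were seen.

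DNAH17, the gene of smallest p among those lower with the core, was at log2 0.65 ± 0.30 with dCas9-VP64 over dCas9, the opposite sign, and passed in neither comparison.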
